A study of Mus musculus with 24 samples.

Results

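The interleukin-6 (IL-6), leukemia inhibitory factor (LIF) and oncostatin M axis was followed through 10 genes, which were taken by symbol and were all found among the 54658 gene symbols counted in each experiment. They encode 5 ligands (Il6, Lif, Osm, Il11 and Clcf1), 3 receptor chains (Il6ra, Il6st and Osmr), the transcription factor Stat3 and the inhibitor Socs3. RNA was sequenced from peritoneal cells of 12 mice, 6 given vehicle and 6 given β-NMN, and from both the heart and the lung of each of 6 further mice, of which 3 had received vehicle and 3 β-NMN. β-NMN (β-nicotinamide mononucleotide) is a precursor of NAD+ and was given intraperitoneally at 185 mg/kg/day, and vehicle was saline. All animals were male C57BL/6 mice aged 7 to 12 weeks. The peritoneal cells of both groups had been elicited by 1 mL of thioglycollate (TGC) and, after lavage, had been exposed in culture to E. coli at 15 bacteria per cell for 6 h. The peritoneal mice had been dosed daily for 3 days, with the last dose 24 h before harvest. Both groups of organs came from mice with sepsis induced by cecal ligation and puncture (CLP). Per the paper, these mice had received a single administration, after surgery and 24 h before the organs were taken. The length of treatment thus differed between the 2 experiments. No sham-operated mouse and no unstimulated peritoneal cell is analysed here, so each change is one between β-NMN and vehicle under inflammation. The RNA was bulk RNA, and fewer cells of a type and less RNA per cell cannot be told apart in it.

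Ligands of this family share the signal-transducing receptor gp130, encoded by Il6st. IL-6 first binds its own receptor chain, encoded by Il6ra, oncostatin M uses gp130 together with the chain encoded by Osmr, and LIF uses gp130 with the LIF receptor. The bound receptors activate Janus kinases, which phosphorylate STAT3, and STAT3 switches on Socs3, whose product binds gp130 and its kinases and ends the signal. In sepsis, IL-6 is a main driver of the acute phase response and of fever, macrophages exposed to bacterial products are a strong source of it, and stromal cells respond to oncostatin M.

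Total counts ranged from 31126823 to 112456050 in peritoneal libraries, from 27319513 to 68523239 in hearts and from 8915366 to 28356786 in lungs. The labelled tissues carried their markers. The summed level of 5 cardiomyocyte markers was 29611 to 46115 read counts scaled to library size (CPM) in vehicle hearts, 5 lung epithelial markers summed to 72332 to 96398 CPM in vehicle lungs, and 6 macrophage markers summed to 5366 to 8225 CPM in vehicle peritoneal cells. The mouse that gave vehicle replicate 2 stood apart in both organs. The SD across genes of the log2 difference from the other libraries of the group was 0.898 in its heart, against 0.443 to 0.606 in the other hearts, and 1.62 in its lung, against 0.473 to 0.923 in the other lungs. Its lung also had the lowest total count of all libraries. The fold changes of the 10 genes and of the lists in hearts and lungs are therefore given with this mouse and again without it.

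The promoters of Il6, Lif and Socs3 are shown because these were the ligands with the largest fitted differences in hearts and a gene induced by STAT3. They are RefSeq windows on GRCm38.p6, from 250 bases before to 50 bases after the start site and written 5′ to 3′ on the gene's strand, and capitals mark the motifs found. Il6 (chr5:30012864-30013163, plus strand) held the AP-1 element TGANTCA at −249, the CRE core TGACGT (read here on the opposite strand) at −136, the C/EBP element TTGCNNAA (also read on the opposite strand) at −128 and the NF-κB element GGNNTTTCC at −43, where each position is the first base of the match counted from the start site. Lif (chr11:4257318-4257617, plus strand) held an AP-1 element at −228. Socs3 (chr11:117969317-117969616, minus strand) held the STAT element TTCNNNGAA at −154.
Il6: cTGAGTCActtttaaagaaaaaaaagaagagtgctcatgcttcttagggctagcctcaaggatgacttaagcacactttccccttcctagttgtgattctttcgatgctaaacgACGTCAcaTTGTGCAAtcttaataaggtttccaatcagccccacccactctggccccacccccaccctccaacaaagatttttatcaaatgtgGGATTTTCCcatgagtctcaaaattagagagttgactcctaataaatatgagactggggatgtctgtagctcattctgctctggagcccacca
Lif: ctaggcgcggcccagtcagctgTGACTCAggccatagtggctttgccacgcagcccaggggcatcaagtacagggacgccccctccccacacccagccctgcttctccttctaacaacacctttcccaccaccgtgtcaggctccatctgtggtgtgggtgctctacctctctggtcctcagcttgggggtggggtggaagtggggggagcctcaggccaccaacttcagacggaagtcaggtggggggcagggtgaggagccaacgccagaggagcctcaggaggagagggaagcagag
Socs3: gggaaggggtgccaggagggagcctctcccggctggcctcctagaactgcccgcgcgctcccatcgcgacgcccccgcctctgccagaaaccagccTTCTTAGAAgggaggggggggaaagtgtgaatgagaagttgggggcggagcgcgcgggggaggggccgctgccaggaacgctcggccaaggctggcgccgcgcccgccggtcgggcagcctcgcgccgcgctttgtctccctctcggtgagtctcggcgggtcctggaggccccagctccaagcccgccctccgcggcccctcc
The motifs were searched on both strands and the matches did not overlap each other. Of 32851 promoters of the same length, 8.30% held the STAT element, 5.82% the NF-κB element, 7.81% the AP-1 element, 7.51% the CRE core and 10.8% the C/EBP element. Windows were found for 8 of the 10 genes. Osmr held an AP-1 element from base 4 of the transcript, Il11 held one at −98 from the downstream of its start sites, and the windows of Il6ra, Il6st, Stat3 and the upstream start site of Il11 held none of these letters. Osm and Clcf1 were the other members. Osm (chromosome 11, 4236420 to 4241026) and Lif (chromosome 11, 4257557 to 4272514) are neighbours on GRCm38, with 16530 bases between the end of Osm and the start of Lif.

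Levels of different genes were compared per length, as CPM per kilobase of exon (RPKM). In vehicle peritoneal cells, Socs3 stood highest at 1073 ± 117 RPKM (SD, n = 6), above Stat3 at 111 ± 17.6 RPKM and Il6 at 106 ± 20.9 RPKM, whose ranges overlapped. Osm followed at 32.5 ± 4.58 RPKM, below every Il6 value. Clcf1 (13.4 ± 1.39 RPKM), Lif (10.3 ± 5.40 RPKM) and Il6st (7.59 ± 0.782 RPKM) came next, each overlapping its neighbour. The other receptor chains were low, with Il6ra at 0.952 ± 0.139 RPKM and Osmr at 0.813 ± 0.480 RPKM, and Il11 was lowest at 0.0967 ± 0.0355 RPKM.

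The organs showed another order. In vehicle hearts, Stat3 (55.8 ± 10.5 RPKM; SD, n = 3), Socs3 (49.6 ± 30.4 RPKM) and Il6st (30.9 ± 5.27 RPKM) led, with Socs3 overlapping both Stat3 and Il6st, Osmr lay below them at 7.33 ± 2.42 RPKM, and the 5 ligands were between 0.181 RPKM (Osm) and 1.75 RPKM (Il6). In vehicle lungs, Il6st (42.7 ± 7.25 RPKM), Stat3, Socs3 and Il6ra (18.1 ± 5.76 RPKM) each overlapped the next, and Il6 had the lowest mean of the 10 at 0.304 ± 0.106 RPKM. In vehicle peritoneal cells the mean of 4 of the 5 ligands, all but Il11, was above that of every receptor chain, whereas in vehicle hearts and lungs the mean of every receptor chain was above that of every ligand. These are descriptions, since the peritoneal table and the organ table were scaled separately.

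**Figure D1:**
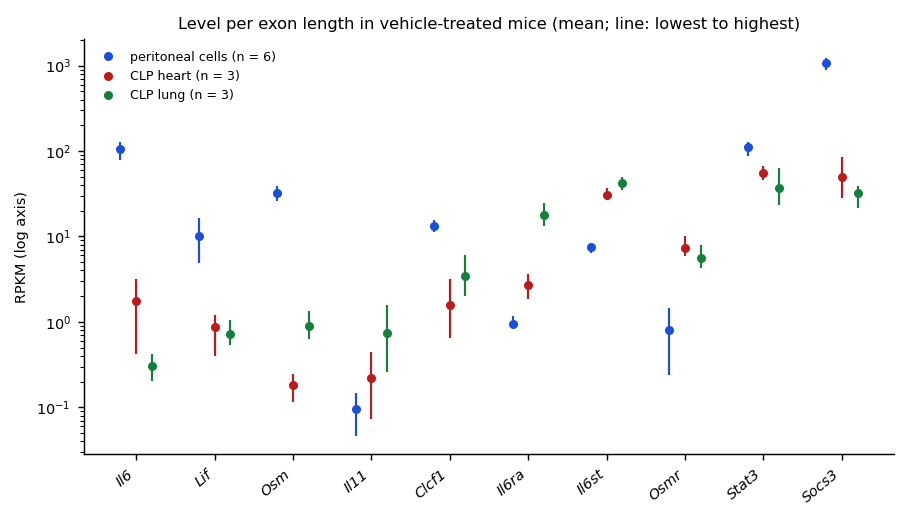
Level of each gene per exon length in vehicle-treated mice, in RPKM on a log axis. Points are means and lines run from the lowest to the highest library (6 peritoneal, 3 heart and 3 lung libraries). Il6, Lif and Osm are highest in peritoneal cells, whereas Il6ra, Il6st and Osmr are highest in the organs.

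In peritoneal cells, β-NMN was compared with vehicle to ask how elicited cells of treated mice differed after exposure to bacteria. Of the 10 genes, 9 passed the low-count filter and all 9 differed between the groups at an adjusted p below 0.05, 8 lower and 1 higher. The background was large, since 27.9% of the 14985 genes tested were called lower and 23.7% higher. Il6, Lif, Osm, Clcf1, Il6ra, Osmr, Stat3 and Socs3 fell, and Il6st rose. Il11 was too low to be tested. All tests are edgeR's quasi-likelihood test with Benjamini-Hochberg adjustment, and fold changes are β-NMN over vehicle.

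Lif, a ligand that acts through gp130 and the LIF receptor, fell the most of the 9. Its level was 21.0 to 72.3 CPM (median 42.3) in the 6 vehicle libraries and 3.60 to 7.50 CPM (median 5.18) in the 6 β-NMN libraries, an 8.17-fold decrease (log2 fold change −3.03, standard error 0.34, adjusted p = 4.49e-06). The groups did not overlap, and the vehicle libraries themselves split widely, with replicates 2, 3 and 4 at 58.2, 72.3 and 66.2 CPM and replicates 1, 5 and 6 at 21.0, 26.3 and 23.5 CPM.

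Il6 itself (chromosome 5, 30013114 to 30019981) was 192 to 313 CPM (median 263) with vehicle and 71.7 to 119 CPM (median 81.3) with β-NMN. This was a 2.97-fold decrease (log2 fold change −1.57, standard error 0.15, adjusted p = 1.11e-06), and the lowest vehicle library lay well above the highest β-NMN library, which was replicate 6. Osm, made mainly by activated macrophages and neutrophils, ranged over 59.9 to 88.2 CPM (median 75.1) and 17.6 to 41.5 CPM (median 26.6) in the same order and fell 2.62-fold (log2 fold change −1.39, standard error 0.16, adjusted p = 7.64e-06). Its groups did not overlap either.

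Clcf1, a ligand that signals through the ciliary neurotrophic factor receptor, fell less. It measured 43.3 to 58.7 CPM (median 51.4) with vehicle and 24.0 to 34.1 CPM (median 29.3) with β-NMN (log2 fold change −0.81, standard error 0.10, adjusted p = 1.53e-05), without overlap. Of its exon bases, 8.17% are shared with AC109138.7 on the same strand, where reads cannot be assigned to one gene. Il11, a ligand of stromal cells, stayed near the detection limit, at 5 to 34 counts in vehicle libraries and 0 to 6 in β-NMN libraries. These correspond to 0.0972 to 0.309 CPM (median 0.193) and 0 to 0.153 CPM (median 0.0452), and the 0 counts of β-NMN replicate 3 allow up to 0.0797 CPM by counting error alone.

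Among the receptor chains, Il6st was the only 1 of the 9 tested genes that rose. It ranged over 70.8 to 94.1 CPM (median 85.4) with vehicle and 120.2 to 149.9 CPM (median 124) with β-NMN, a 1.53-fold increase with every β-NMN library above every vehicle library (log2 fold change 0.61, standard error 0.09, adjusted p = 5.06e-05). Il6ra, the chain that binds IL-6, was 7.27 to 10.2 CPM (median 7.72) and 4.94 to 6.61 CPM (median 5.58) respectively, and fell 1.44-fold without overlap (log2 fold change −0.53, standard error 0.12, adjusted p = 0.00226). Thus both chains of the IL-6 receptor moved, and they moved in opposite directions.

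Osmr, the oncostatin M receptor chain typical of stromal cells, was 2.90 to 17.6 CPM (median 8.77) with vehicle and 1.86 to 5.18 CPM (median 4.14) with β-NMN (log2 fold change −1.39, standard error 0.38, adjusted p = 0.00616). It was the only tested gene of the 9 whose groups overlapped, because vehicle replicate 1, at 2.90 CPM, lay among the β-NMN libraries. The vehicle libraries varied most for Osmr (coefficient of variation 59.0%) and Lif (52.7%), against 10.3% to 19.8% for the other 7 tested genes.

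**Figure D2:**
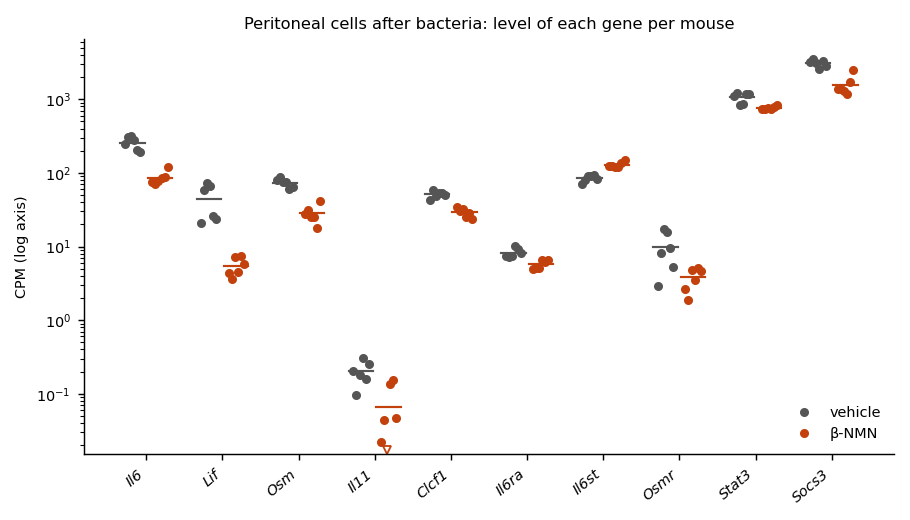
CPM of each gene in each peritoneal library, on a log axis. Points are mice (6 vehicle, 6 β-NMN), lines are group means, and the open triangle at the lower edge is the β-NMN library with 0 counts of Il11. The β-NMN points lie below all vehicle points for Il6, Lif, Osm, Clcf1, Il6ra, Stat3 and Socs3, above them for Il6st, and among them for Osmr and Il11.

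The signalling genes fell as well, and by smaller factors than the main ligands. Stat3, which carries the signal to the nucleus, ranged over 843 to 1212 CPM (median 1130) with vehicle and 736 to 839 CPM (median 753) with β-NMN (log2 fold change −0.46, standard error 0.11, adjusted p = 0.00204). Its vehicle replicates 3 and 4, at 843 and 855 CPM, came close to the highest β-NMN library but did not overlap it. Socs3, the feedback inhibitor induced by STAT3, was 2575 to 3525 CPM (median 3168) and 1194 to 2508 CPM (median 1375) respectively and fell 1.97-fold (log2 fold change −0.98, standard error 0.16, adjusted p = 0.000184). The highest β-NMN value of Socs3 was again replicate 6, and the next was 1701 CPM.

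Markers of other cells moved with the treatment in the same libraries. Of 6 neutrophil markers, 4 fell and 1 rose, and their sum was 108 to 309 CPM with vehicle and 20.0 to 51.2 CPM with β-NMN. Of 4 fibroblast markers, the 3 tested all fell, and the sum of the 4 was 52.6 to 595 CPM and 14.0 to 50.5 CPM respectively. Of 6 macrophage markers, 3 rose and 0 fell, and the sum was 5366 to 8225 CPM and 10350 to 11890 CPM. None of these markers was at 0 in a whole group. All 4 T cell markers fell (summed 3.03 to 9.64 CPM and 0.884 to 2.57 CPM), as did 2 of 4 B cell markers, 2 of the 3 mesothelial markers tested and 2 of the 3 endothelial markers tested. Of 4 eosinophil markers 2 were tested, of which 1 rose and 0 fell (summed 8.23 to 32.1 CPM and 15.2 to 60.7 CPM). None of the 4 mast cell markers was called. Over all genes tested, 27.9% were called lower and 23.7% higher. The part of these cells in the changes of the 9 genes was not tested.

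The fibroblast markers also varied among vehicle mice, in the same order of libraries as Osmr. Their sum was 52.6, 59.5, 141, 148, 268 and 595 CPM in vehicle replicates 1, 6, 2, 5, 4 and 3, in which Osmr measured 2.90, 5.23, 8.05, 9.50, 15.9 and 17.6 CPM. Lif was highest in replicates 3 and 4 as well. With both of these libraries left out, a choice made after the data had been examined, Osmr had a log2 fold change of −0.74 and was no longer called (adjusted p = 0.0675), whereas the other 8 genes were still called, Lif with a log2 fold change of −2.52 and Il6 with −1.41. These 2 libraries also held the highest Osmr and Lif, so leaving them out had to lower both fold changes. The vehicle libraries that remained held 52.6 to 148 CPM of fibroblast markers, still above the 14.0 to 50.5 CPM of the β-NMN libraries. The omission therefore cannot separate the calls that remained from fibroblast RNA, whose part was not tested. With any single library left out, Osmr was still called, at log2 fold changes from −1.55 to −1.12.

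**Figure D3:**
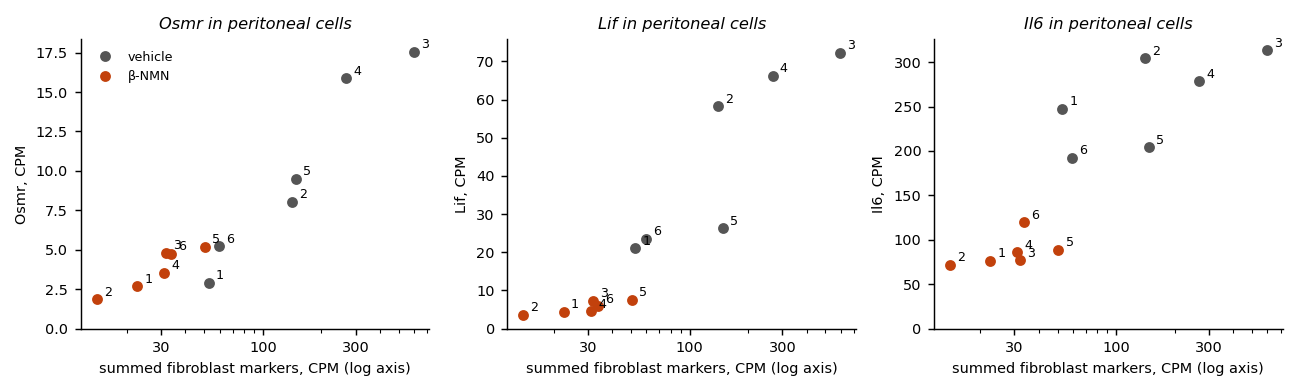
Osmr, Lif and Il6 (CPM, linear axes) against the summed level of 4 fibroblast markers (CPM, log axis) in the 12 peritoneal libraries. Each point is a mouse with its replicate number. Osmr and Lif are highest in vehicle replicates 3 and 4, which have the most fibroblast marker RNA, and Il6 is between 192 and 313 CPM in the 6 vehicle libraries.

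The wider pathway in peritoneal cells was described by 5 lists. Of 7 other ligands and partners of the family, 2 were high enough to be tested, and they moved oppositely. Ebi3, the subunit shared by IL-27 and IL-35, fell (log2 fold change −1.62, standard error 0.10, adjusted p = 1.92e-08), from 56.4 ± 6.52 to 18.4 ± 1.73 CPM (SD, n = 6). Il27, its partner in IL-27, rose (log2 fold change 0.69, standard error 0.20, adjusted p = 0.00929). Of 5 other receptors, 4 were tested, 1 fell and 2 rose. Lifr, the LIF receptor, fell (log2 fold change −1.40, standard error 0.15, adjusted p = 3.71e-06), from 12.9 ± 2.49 to 4.91 ± 0.877 CPM, in the libraries in which Lif fell. Il11ra1, the IL-11 receptor chain, rose (log2 fold change 0.72, standard error 0.14, adjusted p = 0.00072), although reads from its near-identical copies may be counted with it, and Il31ra rose from a very low level (mean 0.182 to 0.561 CPM, log2 fold change 1.69, standard error 0.37, adjusted p = 0.00152).

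Kinases, phosphatases, sheddases and further inhibitors had no common direction, with 4 of 13 lower, 3 higher and a median log2 fold change of 0.00, beside −0.02 over all genes tested. The largest changes in this list were in Cish, an inhibitor induced by cytokines (log2 fold change −0.85, standard error 0.14, adjusted p = 0.00012), in Socs2 (log2 fold change 0.65, standard error 0.11, adjusted p = 0.000161), which rose, and in the phosphatases Ptpn2 (log2 fold change −0.54, standard error 0.10, adjusted p = 0.000315) and Ptpn11 (log2 fold change −0.45, standard error 0.11, adjusted p = 0.00263), which fell. All 14 genes known to be induced by STAT3 were called lower, where 27.9% of all genes tested were, with a median log2 fold change of −1.28. This list was chosen with earlier results of these data known, and STAT3 activity was not measured. Those that fell most were Hp, encoding haptoglobin (log2 fold change −4.92, standard error 0.43, adjusted p = 4.88e-07), Lcn2, encoding lipocalin 2 (log2 fold change −4.55, standard error 0.29, adjusted p = 3.57e-08), the protease inhibitor Serpina3n (log2 fold change −2.67, standard error 0.48, adjusted p = 0.000319) and the acute phase gene Saa3 (log2 fold change −2.41, standard error 0.24, adjusted p = 1.83e-06). Mean levels went from 401 ± 70.3 to 17.2 ± 8.14 CPM for Lcn2 and from 3964 ± 1135 to 747 ± 262 CPM for Saa3 (SD, n = 6). Hp and Lcn2 are also genes of neutrophil granules, and the neutrophil markers fell in the same libraries.

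Genes that act on the Il6 promoter or on its mRNA went the same way, with 7 of 8 called lower, 0 higher and a median log2 fold change of −0.74. Over all genes tested, 27.9% were called lower and 23.7% higher, and this list too was chosen with earlier results known. Zc3h12a, encoding the RNase Regnase-1 that degrades Il6 mRNA, fell (log2 fold change −1.55, standard error 0.09, adjusted p = 1.86e-08), as did the activators Cebpb (log2 fold change −1.40, standard error 0.18, adjusted p = 1.99e-05), Nfkbiz (log2 fold change −1.09, standard error 0.14, adjusted p = 1.96e-05) and Nfkb1 (log2 fold change −0.78, standard error 0.12, adjusted p = 7.42e-05). Cebpb and Cebpd belong to both of the last lists. Activators and a destabilizer of Il6 mRNA thus fell together.

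In CLP hearts, the same comparison asked whether β-NMN altered the axis in an organ during sepsis. None of the 10 genes passed an adjusted p of 0.05 in edgeR's quasi-likelihood test, as none of the 16245 genes tested did (0.0% called, with 1837 genes or 11.3% at an unadjusted p below 0.05). All 10 fitted fold changes were below 0, with a median of −1.48 on the log2 scale beside −0.01 over all genes, and 7 of the 10 had an unadjusted p below 0.05. For 7 of 10 genes every β-NMN heart was below every vehicle heart, which held for 11.5% of all genes tested. Il6, Lif, Osm and Il11 entered these tallies mainly through the vehicle hearts, since only 0 or 1 of their β-NMN hearts reached the low-count filter's cutoff. The tallies are descriptions and carry no test. DESeq2, run as an alternative, called Il6, Lif and Socs3 lower, where it called 1.68% of genes lower.

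Il6 had 67, 405 and 140 counts in the vehicle hearts of replicates 1, 2 and 3, and 1, 5 and 4 in the β-NMN hearts. Scaled to depth, these were 1.03, 7.62 and 4.07 CPM against 0.0372, 0.0924 and 0.0620 CPM. The groups were far apart, and Il6 passed the low-count filter only through its vehicle hearts. The fitted difference was 60.4-fold (log2 fold change −5.92, standard error 0.87, adjusted p = 0.435), and DESeq2 gave an adjusted p of 2.68e-09.

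Lif measured 1.75, 5.17 and 4.39 CPM in vehicle hearts and 0.186, 0.517 and 0.171 CPM in β-NMN hearts. The lowest vehicle heart was above the highest β-NMN heart, by a wide margin for a gene of this level (log2 fold change −3.65, standard error 0.61, adjusted p = 0.435; DESeq2 adjusted p = 2.12e-06). Osm was rare, at 0.261, 0.564 and 0.407 CPM and 0.0372, 0.259 and 0.109 CPM. The highest β-NMN heart and the lowest vehicle heart of Osm were almost level, at 14 and 17 counts (log2 fold change −1.49, standard error 0.61, adjusted p = 0.435).

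Il11 had 10, 15 and 32 counts in vehicle hearts and 0, 10 and 15 in β-NMN hearts, where the 0 allows up to 0.112 CPM. Its groups overlapped (log2 fold change −1.48, standard error 0.93, adjusted p = 0.495), and without vehicle replicate 3 the value was −0.47. Clcf1, at 3.50, 12.2 and 2.44 CPM and 1.12, 1.98 and 3.32 CPM, overlapped too, and its vehicle mean was set by replicate 2 (log2 fold change −1.49, standard error 0.68, adjusted p = 0.438). Lif, Osm and Il11 each had 1 β-NMN heart at the filter's cutoff, so these ligands also owed their place in the test mainly to the vehicle group.

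Receptor chains differed less. Osmr measured 73.0, 123 and 70.7 CPM in vehicle hearts and 47.0, 37.5 and 63.9 CPM in β-NMN hearts (log2 fold change −0.84, standard error 0.28, adjusted p = 0.435). Il6ra measured 22.2, 31.8 and 16.1 CPM and 14.3, 13.7 and 14.8 CPM, with β-NMN hearts close to one another and vehicle hearts spread (log2 fold change −0.71, standard error 0.24, adjusted p = 0.435). Neither overlapped between groups. Il6st, at 297, 409 and 323 CPM and 303, 293 and 327 CPM, overlapped fully (log2 fold change −0.16, standard error 0.16, adjusted p = 0.643).

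Socs3 measured 82.3, 244 and 104 CPM in vehicle hearts and 30.3, 25.5 and 30.2 CPM in β-NMN hearts. The β-NMN hearts were tightly grouped, and every vehicle heart lay above all of them (log2 fold change −2.32, standard error 0.41, adjusted p = 0.435; DESeq2 adjusted p = 1.07e-05). Stat3, at 528, 633 and 433 CPM and 279.7, 257 and 431 CPM, did not overlap, but its highest β-NMN heart, replicate 3, nearly reached the lowest vehicle heart (log2 fold change −0.72, standard error 0.25, adjusted p = 0.435).

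**Figure D4:**
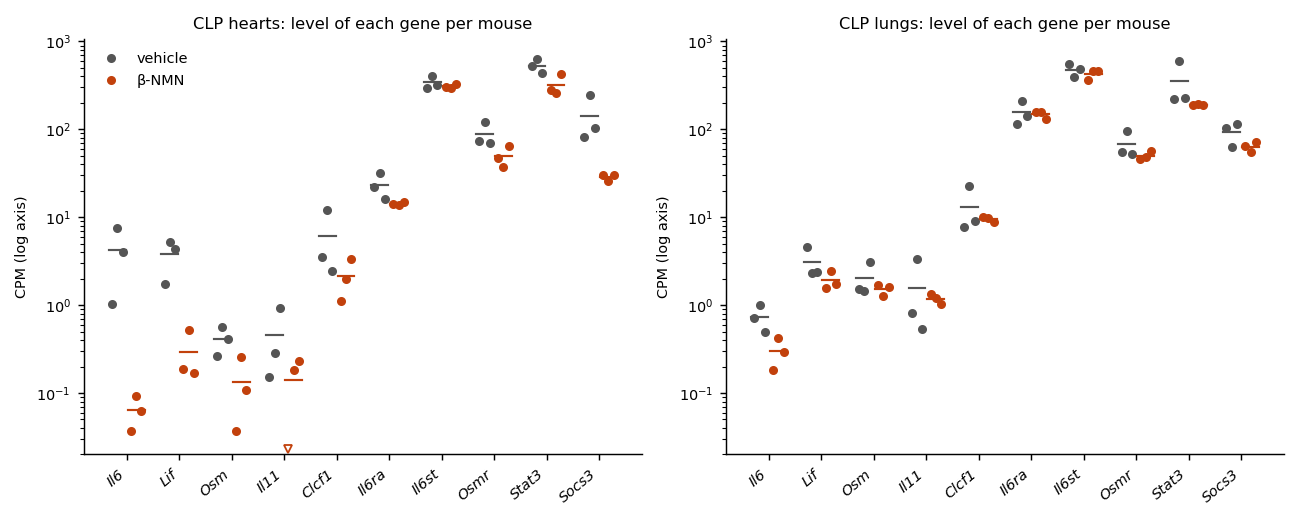
CPM of each gene in each CLP heart (left) and CLP lung (right), on log axes. Points are mice (3 vehicle, 3 β-NMN per organ, replicates 1 to 3 from left to right), lines are group means, and the open triangle is the heart with 0 counts of Il11. In hearts the groups are far apart for Il6, Lif and Socs3, and in lungs they lie close together for most genes.

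Vehicle replicate 2 had the highest value among vehicle hearts for every gene except Il11, whose highest was replicate 3. This heart also held mesothelial RNA, with 4 mesothelial markers summing to 98.0 CPM against 5.66 to 12.1 CPM in the other 5 hearts, and more fibroblast marker RNA than the others (1429 CPM, others 648 to 894 CPM). Without it, the log2 fold change of Il6 was −5.17 (adjusted p = 0.109), that of Lif −3.35 (adjusted p = 0.148) and that of Socs3 −1.70. Socs3 then passed the threshold in edgeR's quasi-likelihood test (adjusted p = 0.0168), as did 5 genes in all. The values of Clcf1 (−0.46), Il6ra (−0.43), Osmr (−0.55) and Il6st (−0.0176) moved toward 0 by more than 1.5 times. The other values without this mouse were −1.16 for Osm, −1.70 for Il11 and −0.58 for Stat3.

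Markers of other cells differed between the treatment groups of hearts as well, although 0 of them were called. The sum of 6 neutrophil markers was 13.6, 16.1 and 29.7 CPM in vehicle hearts and 10.2, 10.8 and 11.4 CPM in β-NMN hearts, and that of 5 cardiomyocyte markers was 29611 to 46115 CPM and 48052 to 52362 CPM. Neither sum overlapped between the groups. Those of the other 9 marker lists overlapped, among them the mesothelial markers, whose median log2 fold change was −3.54, with 9.82 to 98.0 CPM and 5.66 to 10.1 CPM. The part of these cells in the heart values was not tested.

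Of the other lists in hearts, 0 genes were called in edgeR's quasi-likelihood test. The 14 genes known to be induced by STAT3 all had fold changes below 0 (median −1.21 on the log2 scale), with the smallest p in Junb, an AP-1 subunit (log2 fold change −1.56, standard error 0.26), and Timp1, an inhibitor of matrix proteases (log2 fold change −2.53, standard error 0.64). The 8 regulators of Il6 were likewise all below 0 (median −0.97), led by Cebpd (log2 fold change −1.19, standard error 0.31) and Cebpb (log2 fold change −0.46, standard error 0.12). The 13 kinases, phosphatases, sheddases and inhibitors had a median of −0.07, and their smallest p belonged to Socs1, a second inhibitor of Janus kinases (log2 fold change −1.74, standard error 0.45), and Ptpn2 (log2 fold change −0.90, standard error 0.27). Of other receptors 2 of the 4 tested were below 0, with Cntfr at log2 fold change −1.44, standard error 0.53 and Lifr at log2 fold change 0.46, standard error 0.29, and the other ligand Ctf1 was at log2 fold change 0.26, standard error 0.23.

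Without vehicle replicate 2, the median was −0.73 for the 14 STAT3-induced genes, −0.43 for the 8 regulators and −0.0090 for the 13 kinases, phosphatases, sheddases and inhibitors, and the first 2 lists were still all below 0. Junb was then called (log2 fold change −1.22, adjusted p = 0.0168 in edgeR's quasi-likelihood test) as the only gene of the lists. Several values shrank by more than 1.5 times, to −1.44 for Timp1, −0.75 for Cebpd, −0.56 for Ptpn2, −0.58 for Cntfr, 0.18 for Lifr and 0.0961 for Ctf1, whereas Socs1 was at −1.30 and Cebpb at −0.36.

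In CLP lungs, none of the 10 genes and none of the 17008 genes tested was called (0.0%, with 301 genes or 1.77% and 0 of the 10 at an unadjusted p below 0.05). All 10 fitted fold changes were below 0, but small, with a median of −0.44 on the log2 scale beside 0.00 over all genes. Groups did not overlap for Il6 and Stat3, where β-NMN lungs were lower, and 3.75% of all genes behaved in that way. With DESeq2, 9 lung genes passed and 0 of the 10 were among them.

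Il6 had 21, 7 and 12 counts in vehicle lungs and 3, 11 and 8 in β-NMN lungs, or 0.708, 1.01 and 0.497 CPM and 0.183, 0.425 and 0.293 CPM. Most of its place in the test came from vehicle lungs, since 1 of 3 β-NMN lungs reached the filter's cutoff, and the nearest libraries of both groups differed by less than the spread within each (log2 fold change −1.20, standard error 0.55, adjusted p = 0.969; −0.96 without vehicle replicate 2). Stat3 was 224, 606 and 225 CPM against 188, 195 and 191 CPM (log2 fold change −0.88, standard error 0.43, adjusted p = 0.969). Its vehicle mean came from replicate 2, and without that mouse the log2 fold change was −0.23.

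Socs3 lay at 104, 62.7 and 114 CPM in vehicle lungs and 64.3, 55.0 and 71.9 CPM in β-NMN lungs. Here replicate 2 was the lowest vehicle lung, and the groups overlapped only through it (log2 fold change −0.56, standard error 0.29, adjusted p = 0.969; −0.77 without it). Lif was 4.62, 2.31 and 2.40 CPM and 1.58, 2.47 and 1.72 CPM, with overlap (log2 fold change −0.70, standard error 0.44, adjusted p = 0.969; −0.86 without replicate 2). Its vehicle mean was set by replicate 1, without which the log2 fold change was −0.27. Osm, at 1.52, 1.44 and 3.07 CPM and 1.71, 1.28 and 1.61 CPM, owed its fitted difference to vehicle replicate 3 (log2 fold change −0.41, standard error 0.46, adjusted p = 0.969), without which the sign turned (0.0608). Without replicate 2 its value was −0.58.

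Il11 and Clcf1 were highest in vehicle replicate 2, at 3.32 and 22.8 CPM. The other lungs held 0.538 to 1.34 CPM of Il11 and 7.66 to 10.1 CPM of Clcf1, and both fold changes, −0.29 and −0.45 on the log2 scale, turned positive without that mouse (0.80 and 0.19). Il6ra, high in lung, was 114, 211 and 143 CPM and 158, 156 and 131 CPM (log2 fold change −0.07, standard error 0.29, adjusted p = 0.98). It overlapped fully, and its sign also turned without that mouse (0.20).

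Osmr, at 55.7, 95.3 and 51.9 CPM and 45.6, 48.8 and 56.7 CPM (log2 fold change −0.42, standard error 0.29, adjusted p = 0.969), and Il6st, at 549.9, 389.6 and 482 CPM and 369, 463 and 464 CPM (log2 fold change −0.13, standard error 0.26, adjusted p = 0.969), overlapped too. Without vehicle replicate 2 the value of Osmr was −0.0936 and that of Il6st −0.26.

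Among marker lists in lungs, 6 macrophage markers summed to 3942, 1211 and 4249 CPM in vehicle replicates 1, 2 and 3 and to 5428, 5125 and 4966 CPM in the β-NMN lungs. Every β-NMN lung was thus above every vehicle lung, and replicate 2 was far below the rest. Cardiomyocyte markers did not overlap either, at 252 to 415 CPM with vehicle and 74.3 to 245 CPM with β-NMN, and the other 9 lists overlapped. Vehicle replicate 2 also held more fibroblast marker RNA than the other lungs (1415 CPM, others 555 to 973 CPM). None of these markers was called, and their part in the lung values was not tested.

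The other lists in lungs contained 0 called genes. All 14 genes known to be induced by STAT3 were below 0 (median −0.71), with the smallest p in Junb (log2 fold change −1.29, standard error 0.49) and Il4ra (log2 fold change −0.63, standard error 0.26), and 7 of 8 regulators of Il6 were below 0 (median −0.41), with the smallest p in Arid5a, which stabilizes Il6 mRNA (log2 fold change −0.77, standard error 0.30), and Cebpb (log2 fold change −1.71, standard error 0.71). The remaining lists had medians of −0.09 for other ligands (Il27 log2 fold change −0.57, standard error 0.54, Ebi3 log2 fold change −0.30, standard error 0.42), 0.13 for other receptors (Lifr log2 fold change 0.63, standard error 0.32, Il11ra1 log2 fold change −0.99, standard error 0.66) and 0.08 for kinases, phosphatases, sheddases and inhibitors. In that last list Socs1 (log2 fold change −1.17, standard error 0.38) and Ptpn2 (log2 fold change −0.87, standard error 0.57) had the smallest p, as in hearts.

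In lungs 1 library carried several of these values. Vehicle replicate 2 held 1175 CPM of Cebpb, 76.9 CPM of Ptpn2 and 318 CPM of Il11ra1, the highest vehicle level of each. Without it, Cebpb was at −0.46 on the log2 scale, and Ptpn2 (0.11) and Il11ra1 (0.19) turned positive. Junb (−0.63), Arid5a (−0.43), Il4ra (−0.45), Socs1 (−0.97), Lifr (0.40), Il27 (−0.30) and Ebi3 (−0.50) kept their sign. The medians became −0.42 for STAT3-induced genes (13 of 14 below 0), −0.34 for regulators of Il6 (8 of 8 below 0), −0.28 for other ligands, 0.27 for other receptors and −0.0750 for kinases, phosphatases, sheddases and inhibitors.

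**Figure D5:**
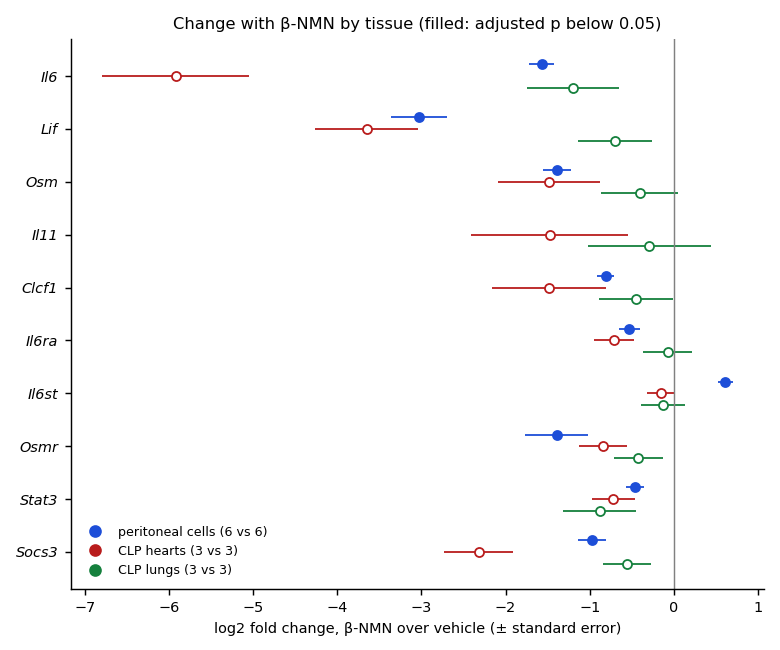
Log2 fold change of each gene, β-NMN over vehicle, with its standard error, in peritoneal cells (6 against 6 mice), CLP hearts (3 against 3) and CLP lungs (3 against 3). Filled points passed an adjusted p of 0.05 in edgeR's quasi-likelihood test, and Il11 has no peritoneal point because it was not tested. Values reach −5.92 for Il6 in hearts, and Il6st in peritoneal cells is the only point above 0.

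Whether the effect of β-NMN differed between the organs was tested as an interaction over the 12 CLP libraries. None of the 18318 genes tested was called in edgeR's quasi-likelihood test (0.0%, with 797 genes or 4.35% at an unadjusted p below 0.05). Of the 10 genes, 3 had an unadjusted p below 0.05, and all 3 were lower with β-NMN in hearts by more than in lungs. Il6 differed by −4.73 on the log2 scale (standard error 1.00, adjusted p = 0.96), Lif by −2.94 (standard error 0.78, adjusted p = 0.96) and Socs3 by −1.76 (standard error 0.53, adjusted p = 0.96). DESeq2 called Il6 (adjusted p = 0.038). Differences of the other 7 genes ranged from −1.29 (Il11) to 0.11 (Stat3), within about 2 standard errors. In edgeR's test a larger effect in hearts was thus not shown for any of the 10 genes. Without the mouse of vehicle replicate 2, the differences were −4.17 for Il6, −2.44 for Lif and −0.90 for Socs3.

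Levels of the 10 genes were then compared between the organs. Over both treatments, 5 of the 10 genes were called between CLP heart and CLP lung, 3 lower and 2 higher in heart, in a comparison where 35.9% of 18318 genes were lower and 28.9% higher and the median gene was at −0.14 on the log2 scale. The share of the 10 genes called was thus no higher than that of all genes, and the values below are those of single genes. Values in this paragraph and the next come from the joint scaling of both organs and differ from the CPM given for each organ alone. Il6ra was lower in heart, at 17.6 to 39.5 CPM (median 19.5) in hearts and 92.7 to 155 CPM (median 119) in lungs, without overlap (log2 fold change −2.37, standard error 0.19, adjusted p = 5.82e-07). Osm, at 0.0470 to 0.703 CPM (median 0.333) in hearts and 1.02 to 2.48 CPM (median 1.27) in lungs, was lower in heart as well (log2 fold change −2.18, standard error 0.42, adjusted p = 0.000664). Stat3 was higher in heart, at 329.7 to 788 CPM (median 544) in hearts and 146 to 444 CPM (median 169) in lungs, where only vehicle replicate 2 of the lungs reached the heart values (log2 fold change 1.37, standard error 0.25, adjusted p = 0.00049). Osmr was also higher, at 48.1 to 153 CPM (median 84.8) in hearts and 35.4 to 69.9 CPM (median 43.6) in lungs (log2 fold change 0.87, standard error 0.20, adjusted p = 0.00266), and overlapped. Without the mouse of vehicle replicate 2 these 4 genes were called in the same directions, at −2.29 for Il6ra, −2.31 for Osm, 1.70 for Stat3 and 0.97 for Osmr. Both the gp130 partner of oncostatin M and STAT3 thus stood higher in heart, and the ligand and the IL-6 receptor chain stood higher in lung.

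Il11 was lower in heart by a log2 fold change of −1.62 at the edge of the threshold (adjusted p = 0.0425), and with the mouse as a replicate block it was not called (adjusted p = 0.0693). It was also lost without any one of vehicle replicates 1 and 2 and β-NMN replicates 1, 2 and 3, where values lay between −1.90 and −0.87. Clcf1 (log2 fold change −0.93, standard error 0.42, adjusted p = 0.0692) was called lower in heart with that block (−1.11, adjusted p = 0.00923) and without vehicle replicate 2 (−1.03, adjusted p = 0.00321). Il6 (log2 fold change 0.88, standard error 0.52, adjusted p = 0.152) was, among omissions of single mice, called higher in heart only without vehicle replicate 1 (1.14, adjusted p = 0.0461). Lif (log2 fold change −0.55, standard error 0.38, adjusted p = 0.225), Il6st (log2 fold change 0.19, standard error 0.16, adjusted p = 0.307) and Socs3 (log2 fold change 0.40, standard error 0.26, adjusted p = 0.205) did not pass in edgeR's quasi-likelihood test, with all mice or without single ones. DESeq2, limma-voom and the fit without the low-count filter each called further genes of the axis in this comparison.

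Genes whose profile was nearest to that of Il6 were sought over all 24 libraries, by the mean absolute difference in log2 CPM after centring each gene within each tissue, among 12858 other genes tested in all 3 tissues. The nearest were Ptgs2, encoding cyclooxygenase-2 (mean absolute difference 0.52 on the log2 scale), Ptges, encoding a prostaglandin E synthase (0.55), Vdr, the vitamin D receptor (0.55), the neutrophil chemokine Cxcl2 (0.57) and the phosphodiesterase Pde4b (0.62). Lif was next, at rank 6 (0.62), and Socs3 was at rank 10 (0.65). The remaining genes of the axis followed at rank 36 for Osm, 92 for Clcf1, 392 for Osmr, 512 for Stat3, 773 for Il6ra and 9049 for Il6st. Each of the 5 nearest had fold changes below 0 in peritoneal cells and hearts, between −1.31 (Ptges) and −2.09 (Vdr) in the former and between −2.13 (Pde4b) and −3.90 (Vdr) in the latter, on the log2 scale. In lungs they ranged from −1.67 (Cxcl2) to 0.03 (Ptgs2). The likeness is a description over libraries that share treatment, and it carries no test.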

How the data were processed

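Per the labels and the methods, poly(A) RNA was sequenced, and the authors mapped reads to mm10 with STAR (2.7.3a in the submitters' processing notes) and deposited read counts per gene symbol from featureCounts 2.0.0, without normalization. The strand setting and the annotation are not given in the sources used here. Source labels name thioglycollate for the organs, whereas titles and tissues give CLP. A β-NMN heart titled as a second number 3 was taken as replicate 2, from its mouse. Both tables were fitted whole, per tissue, with edgeR 4.0.16 (R 4.3.3): filterByExpr (minimum count 10), TMM, and the older form of its quasi-likelihood F-test. The authors' methods name TMM and that test, but no low-count filter. The paper reports differentially expressed genes in both CLP organs with that test, whereas 0 were called in either organ here, and the cause was not tested. Genes with a Benjamini-Hochberg adjusted p below 0.05 were called. Standard errors are the absolute log2 fold change divided by the square root of F. CPM use TMM-scaled library sizes, RPKM divide CPM by the exon length of GENCODE M21 (GRCm38), and log2 CPM used a prior count of 2. Fewer than 10 mice per group stand behind every test. Floors are 3 counts and cover counting error only.

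All 10 members were described in every comparison. From each other list, up to 4 called genes with the largest change were named, or the 2 with the smallest p where none was called. One gene named by this rule is not reported here. The members, the lists and the rules were chosen with earlier results of these data known, and the list of STAT3-induced genes is no independent evidence of its direction. Alternatives were DESeq2 size factors, no low-count filter, the DESeq2 1.42.0 test, the newer quasi-likelihood fit, limma-voom 3.58.1 with quality weights, a replicate block and leaving out each library, or each mouse in comparisons over both organs. Heart and lung of a mouse are paired by label, and their deviations from the group means correlated across genes with r from 0.06 to 0.17.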

Additional observations from a re-analysis of the deposited data

Results flagged for a closer look

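Il6 in β-NMN replicate 6 of the peritoneal cells stood far from its group, at 119 CPM, where the nearest of the other 5 libraries held 89.0 CPM. It was 1 of 20 groups of a gene examined in this way, and chance alone marks about 1 in 20. The same library was the highest β-NMN library for Osm (41.5 CPM), Il6ra (6.61 CPM), Il6st (150 CPM), Stat3 (839 CPM) and Socs3 (2508 CPM), and the lowest for Clcf1 (24.0 CPM). Without it, the log2 fold change was −1.65 for Il6, −1.50 for Osm and −1.13 for Socs3, and all 9 tested genes were still called.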

How the results depend on the processing

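In peritoneal cells, all 9 calls held under the 6 other settings and without each library in turn, and 8 held with vehicle replicates 3 and 4 left out. In hearts, 0 of the 10 genes were called, against 1 (Il6) without the low-count filter, 3 (Il6, Lif and Socs3) with DESeq2 and 0 to 1 with single libraries left out. Over all heart genes the count of 0 became 3 without the filter, 283 with DESeq2, 3 with limma-voom and 5 without vehicle replicate 2. In lungs 0 of the 10 were called under each alternative, while the count over all genes was 9 with DESeq2 and 7 with limma-voom. The difference of the effect between organs gave 0 calls among the 10 genes except 1 (Il6) with DESeq2, and over all genes 2 without the filter and 14 with DESeq2. In heart against lung, 5 genes were called, and 4 to 5 with single mice left out. More than 5 were called there with DESeq2, with limma-voom and without the low-count filter. For that comparison and the interaction, the replicate block was the mouse; beyond Il11 and Clcf1, given above, it changed no call. In the other comparisons libraries share only a number, since same-numbered deviations correlated with r between −0.52 and 0.30, and the replicate block left the member counts at 9, 0 and 0.

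Signs turned for values that were not called. In lungs, Il11 was 0.57 with limma-voom, 0.0734 with the replicate block and −0.71 to 0.80 with single libraries left out. Clcf1 was 0.16 and Il6ra 0.17 with limma-voom, and single omissions gave −0.71 to 0.19 and −0.24 to 0.20, as well as −0.5783 to 0.0608 for Osm and −0.2561 to 0.0011 for Il6st. In heart against lung, limma-voom gave −0.0032 for Il6st and −0.0535 for Socs3. In the interaction, Il6st was 0.0607 with DESeq2 size factors or the DESeq2 test (0.0612) and 0.21 with limma-voom, Stat3 was −0.44 with limma-voom and −0.0454 with the replicate block, and single omissions gave −0.26 to 0.26 for Il6st, −0.32 to 0.32 for Stat3 and −2.46 to 0.13 for Il11. The cause was not tested. Il6, Lif, Osm and Il11 were counted in only 0 to 5 reads in at least 1 heart each, so their fitted fold changes there rest on few reads.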

Other observations

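Genes of the other lists were compared between CLP heart and CLP lung, where 35.9% of all genes tested were called lower and 28.9% higher in heart, and the shares called in the 3 longest lists were close to these or below them. Of the 14 genes known to be induced by STAT3, 5 were lower and 2 higher in heart, with Hp (log2 fold change −3.43, standard error 0.61, adjusted p = 0.000427), Saa3 (log2 fold change −1.58, standard error 0.53, adjusted p = 0.0212) and Cebpd (log2 fold change −1.20, standard error 0.23, adjusted p = 0.000646) lower and Lrg1 (log2 fold change 2.53, standard error 0.29, adjusted p = 1.37e-05) higher in edgeR's quasi-likelihood test. Of 13 kinases, phosphatases, sheddases and inhibitors, 3 were lower and 3 higher, among them the phosphatases Ptpn11 (log2 fold change 2.00, standard error 0.21, adjusted p = 5.35e-06), higher in heart, and Ptpn6 (log2 fold change −1.19, standard error 0.20, adjusted p = 0.000225), typical of blood cells and lower in heart, and the inhibitors Cish (log2 fold change 1.53, standard error 0.28, adjusted p = 0.000518) and Socs2 (log2 fold change −1.22, standard error 0.38, adjusted p = 0.0142). Of 8 regulators of Il6, 3 were lower in heart, namely Cebpd, Cebpb (log2 fold change −1.16, standard error 0.36, adjusted p = 0.0142) and Zfp36, which promotes decay of cytokine mRNA (log2 fold change −0.62, standard error 0.21, adjusted p = 0.0239). Il27, a ligand of the wider family (log2 fold change −2.43, standard error 0.41, adjusted p = 0.000282), was lower in heart, whereas 0 of 4 other receptors tested were called, the smallest p being those of Il11ra1 (log2 fold change −0.68, standard error 0.34, adjusted p = 0.0988) and Il27ra (log2 fold change 0.76, standard error 0.47, adjusted p = 0.174). The neutrophil markers summed to 13.6 to 29.7 CPM in vehicle hearts and 1350 to 2340 CPM in vehicle lungs, each scaled within its organ, and their part in these differences was not tested. Without the mouse of vehicle replicate 2, Cebpb was at −0.52 and Saa3 at −1.12, both still called, and Il27ra was called higher in heart (0.61, adjusted p = 0.00479 in edgeR's quasi-likelihood test). Il11ra1 was then at −0.0190, so its value above rested on that mouse. The counts also moved, to 6 lower and 4 higher of the 14 STAT3-induced genes, 3 lower and 5 higher of the 13 kinases, phosphatases, sheddases and inhibitors, and 4 lower and 1 higher of the 8 regulators of Il6. The calls over all genes rose in that fit as well, to 14026, from 6579 lower and 5294 higher with all mice. None of the 5 lists held a called gene in the interaction of organ and treatment.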
